A study of Mus musculus with 8 samples.

Results

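The genes described here are 34 chromatin regulators of the mouse: the MLL and SET1 histone methyltransferases with their partners, the DOT1L and super elongation complexes, acetyltransferases and coactivators, histone demethylases, the methyltransferase Nsd1, and Polycomb proteins. They were taken from a list of names with no filter on their values, but the list was chosen with earlier results of these data known. Each is represented by its brightest single-symbol probe set, judged by the mean of all arrays. All 34 were measured, of 19938 genes with such a probe set.

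The study asked which genes depend on the NUP98 portion of NUP98-HOXA9, a fusion oncoprotein that joins repeats of a nuclear pore protein to the homeodomain of HOXA9, and its title names MLL, the product of Kmt2a, as needed for the leukaemia. Cells of the C57BL/6 strain received an empty vector, full-length NUP98-HOXA9, or a deletion form called delFG1 or delFG2, with 2 whole-transcript arrays, numbered 1 and 2, in each of the 4 groups. All cells share the strain, and the kind of cell, the residues removed in each deletion form and the number of separate cultures are not stated in the labels. P-values therefore measure the spread between these arrays, which may be technical.

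MLL proteins place methyl groups on lysine 4 of histone H3 at active promoters, working with the core subunits WDR5, RBBP5, ASH2L and DPY30, and MLL itself reaches its sites together with menin and LEDGF, the product of Psip1. In MLL-rearranged leukaemia, MLL is fused to members of the DOT1L and super elongation complexes, and the HOXA cluster, MEIS1 and PBX3 are maintained by these factors. Polycomb repressive complex 2, built on EZH2, EED and SUZ12, methylates lysine 27 of the same histone and opposes MLL at HOX genes, while CREBBP and its paralogue EP300 acetylate histones and bind the FG repeats of NUP98 fusions.

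For these genes the promoter sequences are shown first, for the member whose level passed a test and for the paralogous coactivators Crebbp and Ep300. Promoter windows from RefSeq, build GRCm38.p6, reaching from 250 bases before the annotated start to 50 bases after it, were matched for 26 of the 34 genes. The remaining genes are Kmt2b, Setd1b, Psip1, Ash2l, Kat6a, Nsd1, Kdm5a and Kdm6b. Where a gene had several windows, the one with the most CG dinucleotides was used, among members and all genes alike. The choice favours high CG counts in genes with several windows. Dpy30 had 4 windows, and Crebbp and Ep300 had 1 each. The 250 bases before the start are printed 5′ to 3′ on the gene's strand, with each CG dinucleotide in capitals. Dpy30 is on chr17:74316212-74316461, minus strand, Crebbp on chr16:4213405-4213654, minus strand, and Ep300 on chr15:81585964-81586213, plus strand.
Dpy30: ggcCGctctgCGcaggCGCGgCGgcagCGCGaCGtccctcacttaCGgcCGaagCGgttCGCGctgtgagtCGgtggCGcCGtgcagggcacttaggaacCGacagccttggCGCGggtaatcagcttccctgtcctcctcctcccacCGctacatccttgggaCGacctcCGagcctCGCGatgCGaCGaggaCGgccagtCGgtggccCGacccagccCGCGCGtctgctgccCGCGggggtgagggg
Crebbp: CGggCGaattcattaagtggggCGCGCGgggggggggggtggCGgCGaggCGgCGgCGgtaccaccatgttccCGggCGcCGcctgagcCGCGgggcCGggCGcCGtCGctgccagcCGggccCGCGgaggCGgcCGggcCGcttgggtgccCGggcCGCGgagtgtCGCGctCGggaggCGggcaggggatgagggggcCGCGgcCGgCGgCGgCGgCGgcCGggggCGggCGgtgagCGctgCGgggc
Ep300: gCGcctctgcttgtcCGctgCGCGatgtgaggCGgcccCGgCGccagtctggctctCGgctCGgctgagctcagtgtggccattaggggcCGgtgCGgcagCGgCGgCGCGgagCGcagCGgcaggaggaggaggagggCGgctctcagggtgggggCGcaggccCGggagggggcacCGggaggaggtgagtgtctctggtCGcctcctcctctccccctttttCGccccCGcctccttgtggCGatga
The Dpy30 stretch holds 34 CG dinucleotides, that of Crebbp 44 and that of Ep300 25. Over the whole windows the 26 members had a median of 30.5 CG dinucleotides, against 8 in all 27025 genes of the table, and a median observed-to-expected CpG ratio of 0.889 against 0.413. At least 20 CG dinucleotides were present in 20 of 26 members (76.9%) and in 28.8% of all genes. Searched on both strands, the GC box GGGCGG was found in 20 members (76.9%, against 37.3% of all windows) and the ETS core CCGGAA in 7 (26.9%, against 15.6%). The GC box contains a CG itself, so its count is not separate from the CG content or from the choice of the CG-richest window. The E box CACGTG was found in Aff4 and Bmi1 (7.69%, against 7.4%), and the PBX-HOX motif TGATNNAT in Kdm5b alone (3.85%, against 8.8%).

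The groups differed strongly in known targets of these factors. Hoxa9 read 7.56 and 7.34 in the empty-vector arrays, 9.41 and 9.43 with the full-length fusion, 8.40 and 7.93 with delFG1, and 8.06 and 7.59 with delFG2, all as log2(intensity + 1), the scale of every level and difference below. The probe sets do not show whether that Hoxa9 signal came from the endogenous gene or from the introduced fusion. Pbx3, Eya1 and Hoxa9 were higher with the full-length fusion by 1.74, 2.43 and 1.97 (limma adjusted p = 0.00276, 0.000761 and 0.00976), and Meis1 by 0.80 (adjusted p = 0.335, or 0.00109 with the array number as a block). The median intensity per array lay between 80.7 and 83.2. Some marker sets of blood cell types also moved: the summed intensity of 10 monocyte and macrophage markers was 20749.6 to 25500.3 with the empty vector, 16744.9 to 18801.9 with the full-length fusion, 15718.5 to 18385.4 with delFG1 and 17911.6 to 21655.5 with delFG2. The sum of 8 erythroid and megakaryocyte markers was 4140.2 to 4440.5, 2966 to 3274.7, 2915.8 to 3062.1 and 3626.6 to 4119.9 in the same order. In the granulocyte, mast cell and basophil, lymphoid, stromal and endothelial, and progenitor lists, the full-length sums overlapped those of the empty vector. In the fit with the block, 6 of the 10 monocyte and macrophage markers were lower with the full-length fusion and 1 higher. The corresponding counts were 6 lower and 1 higher of 13 granulocyte markers, 4 and 1 of 9 mast cell and basophil markers, 4 and 1 of 8 erythroid and megakaryocyte markers, 1 and 1 of 9 lymphoid markers, 2 and 3 of 9 progenitor markers, and 0 and 1 of 8 stromal and endothelial markers. In that fit 6.61% of all probe sets were called. Without the block 1 erythroid and megakaryocyte marker was lower and none of the other lists' markers were called, where 0.124% of all probe sets were. The lowest intensity of an array was 18.3 to 18.7, so a reading above 0 does not show that a marker was detected. Some markers, such as Cd79a (28.1 to 33.1), lay well under the array medians. The part of cell composition in the results below was not tested, and in bulk RNA fewer cells of a type and less RNA per cell cannot be told apart.

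**Figure D1:**
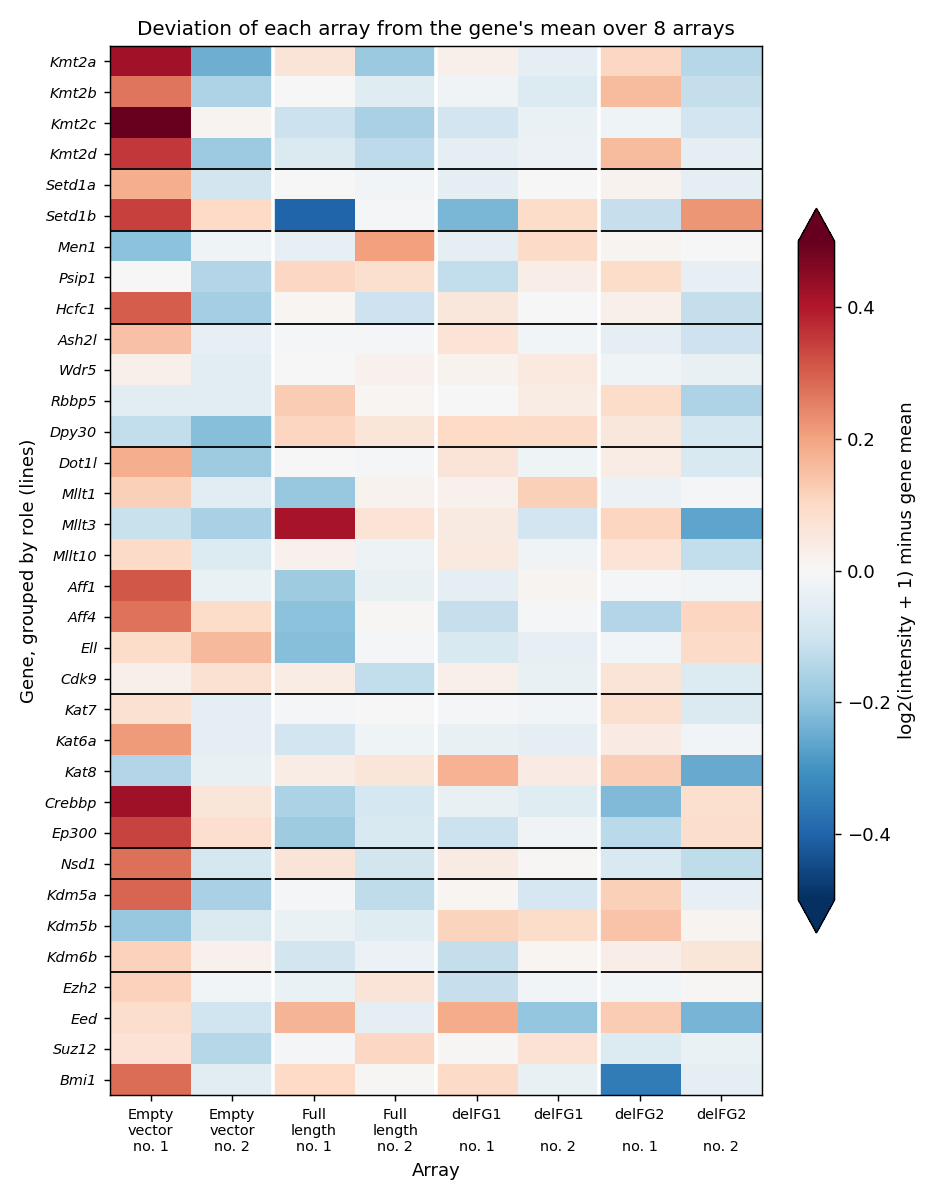
Heat map of the 34 chromatin genes (rows, grouped by role) in the 8 arrays (columns), coloured by log2(intensity + 1) minus the gene's mean over all arrays; Kmt2c in empty-vector array 1 lies just past the end of the colour scale. Empty-vector array 1 is the highest array in 20 of the 34 genes.

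One control array stood apart for these genes. Empty-vector array 1 was the highest of the 8 arrays in 20 of the 34 members (58.8%), against 13% of all probe sets tested. These included all 4 MLL-family genes and both SET1 genes. In the empty-vector group, array 2 was below array 1 in 29 of 34 members, with a median gap of -0.19, while the median gap over all probe sets was 0.02. The same gap had member medians of -0.01 with the full-length fusion, -0.00 with delFG1 and -0.07 with delFG2. Empty-vector array 1 was also the highest in 61.1% of 18 further MLL, COMPASS and menin partners and in 69.2% of 26 further acetyltransferases and coactivators. The share was 47.1% of 17 further demethylases and lysine 36 methyltransferases and 36.8% of 19 further genes of the elongation, DOT1L and PAF complexes. Kdm1a, Kdm2a, Kdm2b, Kdm6a, Kdm7a, Phf8, Nsd2, Nsd3 and Setd2 are in both the list of partners and that of demethylases and methyltransferases. The shares of those lists are therefore not separate. Of 29 further Polycomb genes the share was 17.2%. For 14 target genes of MLL and Polycomb it was 0%, but these were listed with their rise under the fusion already known. All 14 were higher on average with the full-length fusion, so their 0% says little about empty-vector array 1. Because empty-vector array 1 stood apart, differences from the empty vector are also given by array number for the members that the results turn on.

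The members' mean levels ran from 8.20 to 11.26, well over the lowest signal of an array. The range over the 8 arrays was 0.10 for Wdr5, the least variable, and 0.74 for Setd1b, the most variable, with a median of 0.39, above the 0.29 of all probe sets. In 26 of 34 members the range was under 0.5.

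Full-length NUP98-HOXA9 was first compared with the empty vector, which asks whether the fusion changes the RNA of the chromatin machinery itself. None of the 34 members passed the test (limma adjusted p under 0.05, taken over 21789 probe sets), where 0.124% of all probe sets did, and 7 had an unadjusted p under 0.05 (9.54%). With the array number as a block, which removes what same-numbered arrays share, 6.61% of all probe sets passed, and of the members Dpy30 alone, which was higher (2.18% of all probe sets). At an unadjusted p under 0.05 in the same fit there were 10 members (18.6% of all probe sets), 3 of them higher (9.2%) and 7 lower (9.37%). The median member difference was -0.08, against 0.02 for all probe sets, and 24 of 34 members were below 0. That direction differed between the numbers: among arrays numbered 1 the median was -0.18 with 25 members below 0, and among arrays numbered 2 it was 0.05 with 10 below 0, where about 45% of all probe sets were below 0 in each (45.5% and 45.3%). Without empty-vector array 2, so that array 1, the one high in these genes, alone stood for the control and was assumed to vary like the other groups, the fit with the block called 10 members and 2378 of 21789 probe sets. The members were Aff1, Aff4, Crebbp, Ep300, Hcfc1, Kmt2a, Kmt2c, Kmt2d and Setd1b as lower and Mllt3 as higher. Without empty-vector array 1 it called 0 members and 995 probe sets.

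**Figure D2:**
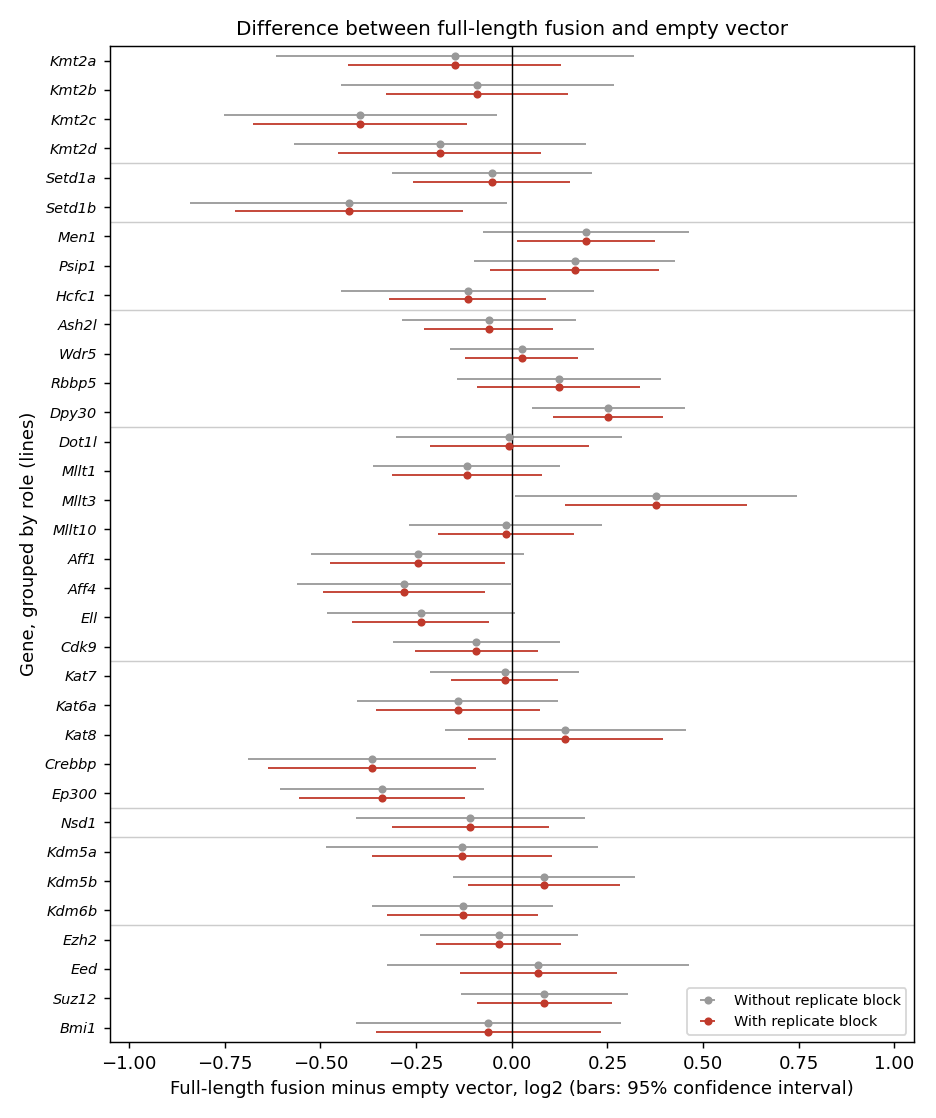
Difference of the full-length fusion from the empty vector for the 34 genes on the log2 scale, as points with bars for the 95% interval, in grey from the fit without and in red from the fit with the array number as a block. Dpy30 is the gene whose adjusted p passed 0.05 with the block, and Setd1b, Kmt2c and Crebbp lie lowest.

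Among the core subunits, Dpy30, which encodes a small subunit needed for full methyltransferase activity of the complexes, was the one that moved. It read 10.58 and 10.49 with the empty vector, 10.81 and 10.76 with the full-length fusion, 10.80 and 10.80 with delFG1, and 10.76 and 10.62 with delFG2. Both empty-vector arrays lay below all 6 arrays that carried a form of the fusion. The full-length fusion exceeded the empty vector by 0.25, a 1.19-fold difference with a 95% interval of 0.11 to 0.40 in the fit with the block (adjusted p = 0.0448, or 0.407 without the block). The difference was 0.23 among arrays numbered 1 and 0.27 among those numbered 2. The call ended when arrays were also centred on their medians (adjusted p = 0.0816), and when any single array was left out (0.0547 to 0.268). For the other core subunits the differences were -0.06 for Ash2l, 0.03 for Wdr5 and 0.12 for Rbbp5. Wdr5, the adaptor that reads the histone tail and ties the complex together, stayed between 10.40 and 10.50 in all 8 arrays.

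The methyltransferases themselves were lower on average with the full-length fusion, but none passed the test. All were lower among arrays numbered 1. Among those numbered 2, Kmt2c and Setd1b were lower by less, and Kmt2a, Kmt2b, Kmt2d and Setd1a were slightly higher. Kmt2a, which encodes MLL, read 9.18 and 8.52 with the empty vector, 8.82 and 8.57 with the full-length fusion, 8.78 and 8.72 with delFG1, and 8.86 and 8.62 with delFG2. The 2 control arrays were the highest and the lowest of all 8, so every other group lay between them. The full-length fusion differed from the empty vector by -0.15 (95% interval with the block -0.43 to 0.13, adjusted p = 0.631), by -0.36 among arrays numbered 1 and by 0.06 among those numbered 2. Without empty-vector array 1 the difference turned to 0.18. The relatives Kmt2b and Kmt2d differed by -0.09 and -0.19, again with groups that overlapped. By number the differences were -0.27 and 0.09 for Kmt2b and -0.42 and 0.05 for Kmt2d.

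Kmt2c, one of the MLL-family enzymes that mark enhancers, read 8.82 and 8.33 with the empty vector and 8.20 and 8.15 with the full-length fusion. It read 8.22 and 8.28 with delFG1 and 8.29 and 8.21 with delFG2, so both control arrays lay above all the others. The difference for the full-length fusion was -0.40 (interval -0.68 to -0.12 with the block, adjusted p = 0.102), with -0.61 among arrays numbered 1 and -0.18 among those numbered 2. Setd1b, a SET1-type lysine 4 methyltransferase, read 9.64 and 9.40 with the empty vector, 8.90 and 9.29 with the full-length fusion, 9.07 and 9.39 with delFG1, and 9.18 and 9.52 with delFG2. Array 1 was the lower one in each of the 3 fusion groups and the higher one in the control. Its difference of -0.43 was the largest among the members for the full-length fusion (interval -0.72 to -0.13, adjusted p = 0.0972), and was -0.74 and -0.11 by number. A dimmer probe set of the gene gave -0.21. Setd1a differed by -0.05, or -0.18 and 0.08 by number.

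The partners of MLL went the other way in part. Men1, which encodes menin, the scaffold that bridges MLL and LEDGF, read 9.71 and 9.89 with the empty vector, 9.87 and 10.11 with the full-length fusion, 9.86 and 10.01 with delFG1, and 9.93 and 9.91 with delFG2. The control and full-length arrays overlapped, and the difference of 0.19 (0.16 and 0.22 in arrays numbered 1 and 2) had an interval of 0.01 to 0.37 with the block and an adjusted p of 0.228. Psip1, whose product LEDGF binds methylated lysine 36 of histone H3, read 8.59 and 8.43 with the empty vector and 8.69 and 8.66 with the full-length fusion. In delFG1 it read 8.46 and 8.62, and in delFG2 8.67 and 8.54. The full-length arrays lay above the control arrays by 0.16, or 0.10 and 0.23 by number (adjusted p = 0.452 with the block). Hcfc1, a coregulator found in MLL1 and SET1 complexes, differed by -0.12.

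In the DOT1L and super elongation complexes, 7 of 8 members were below 0, against 9455 of 21789 probe sets, and Mllt3 was above. The median of these 8 was -0.25 among arrays numbered 1 and 0.02 among those numbered 2, and 4 of 8 kept their direction. Mllt3 encodes AF9, a YEATS-domain reader of acylated histones that recruits DOT1L. It read 8.09 and 8.04 with the empty vector, 8.61 and 8.27 with the full-length fusion, 8.24 and 8.10 with delFG1, and 8.31 and 7.94 with delFG2. The highest array by a wide gap was full-length array 1, and full-length array 2 was below delFG2 array 1. The full-length fusion exceeded the empty vector by 0.38 (interval 0.14 to 0.61 with the block, adjusted p = 0.0664, or 0.511 without), by 0.52 among arrays numbered 1 and 0.23 among those numbered 2. Dot1l, the methyltransferase for lysine 79 of histone H3, read 9.72 and 9.36 with the empty vector and 9.54 and 9.54 with the full-length fusion. With delFG1 it read 9.60 and 9.52 and with delFG2 9.58 and 9.46, so each fusion group lay between the control arrays. The difference was -0.01, with an interval of -0.21 to 0.20, and was -0.19 in arrays numbered 1 and 0.17 in those numbered 2.

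Mllt1, which encodes the AF9 relative ENL, read 10.48 and 10.30 with the empty vector, 10.17 and 10.38 with the full-length fusion, 10.38 and 10.48 with delFG1, and 10.33 and 10.36 with delFG2. Full-length array 1 was the lowest and the other groups overlapped, giving a difference of -0.12 (adjusted p = 0.572 with the block), with -0.31 and 0.07 by number. The scaffolds Aff1 and Aff4 and the elongation factor Ell differed by -0.25, -0.28 and -0.24, with control arrays above full-length arrays in each, and with adjusted p between 0.123 and 0.227 in the fit with the block. Within arrays numbered 2, Aff1 differed by -0.01, Aff4 by -0.09 and Ell by -0.17. Mllt10, a DOT1L cofactor, and Cdk9, the kinase of the elongation factor P-TEFb, differed by -0.02 and -0.09.

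Among the acetyltransferases, the coactivators Crebbp and Ep300 had similar profiles. Crebbp read 10.68 and 10.32 with the empty vector, 10.10 and 10.17 with the full-length fusion, 10.22 and 10.20 with delFG1, and 10.04 and 10.34 with delFG2. Ep300 read 10.98 and 10.72, 10.46 and 10.56, 10.53 and 10.62, and 10.51 and 10.73 in the same order. In both genes the control arrays were above the full-length and delFG1 arrays, while delFG2 array 2 reached the level of control array 2. The full-length fusion differed from the empty vector by -0.37 for Crebbp (interval -0.64 to -0.09 with the block, adjusted p = 0.119) and by -0.34 for Ep300 (-0.56 to -0.12, adjusted p = 0.0721). The difference was larger among arrays numbered 1 (-0.58 and -0.52) than among those numbered 2 (-0.15 and -0.16). The MYST-family enzymes differed less, with -0.02 for Kat7, which encodes HBO1, -0.14 for Kat6a, which encodes MOZ, and 0.14 for Kat8, which encodes MOF.

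**Figure D3:**
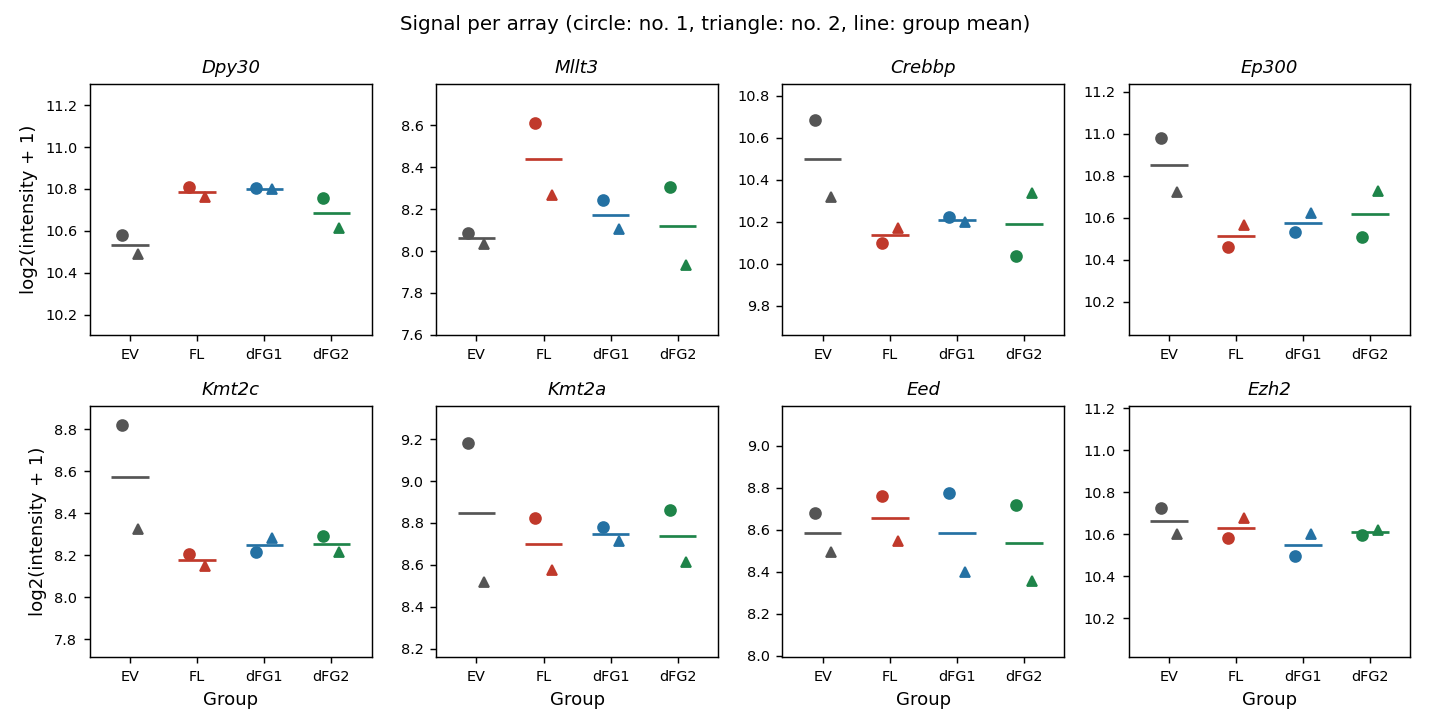
Levels of selected members in every array, as log2(intensity + 1) in panels that span the same width on the y axis (EV, empty vector; FL, full-length fusion; dFG1 and dFG2, the deletion forms). Circles are arrays numbered 1, triangles arrays numbered 2 and lines group means; in Dpy30 both empty-vector arrays lie below all others, and in Kmt2a they are the highest and the lowest.

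Histone demethylases and Nsd1 showed small differences. Kdm5b, an eraser of lysine 4 methylation, read 8.72 and 8.83 with the empty vector and 8.87 and 8.85 with the full-length fusion. It read 9.02 and 8.998 with delFG1 and 9.05 and 8.92 with delFG2, so the control arrays were the lowest of all 8. The full-length difference was 0.08 (adjusted p = 0.730 with the block), with 0.16 and 0.01 by number. Its relative Kdm5a, itself a fusion partner of NUP98 in leukaemia, differed by -0.13, Kdm6b, an eraser of lysine 27 methylation, by -0.13, and Nsd1, a lysine 36 methyltransferase that is also a NUP98 fusion partner, by -0.11.

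No Polycomb gene separated the full-length arrays from the control arrays. Ezh2, the catalytic subunit, read 10.73 and 10.60 with the empty vector, 10.58 and 10.68 with the full-length fusion, 10.50 and 10.60 with delFG1, and 10.60 and 10.62 with delFG2. These arrays overlapped, with a full-length difference of -0.03 (interval -0.20 to 0.13), or -0.15 and 0.08 by number. Bmi1, a subunit of the repressive complex 1 that sustains blood stem cells, read 8.69 and 8.35, 8.51 and 8.41, 8.50 and 8.37, and 8.06 and 8.36 in the same order, the low value being delFG2 array 1. Its full-length difference was -0.06 (interval -0.35 to 0.23), or -0.18 and 0.06 by number. Eed and Suz12 differed by 0.07 and 0.09.

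Of the 34 members, 6 had full-length arrays wholly above the control arrays (23.4% of all probe sets) and 8 wholly below (15.6%). The higher ones were Psip1, Rbbp5, Dpy30, Mllt3, Kat8 and Kdm5b, and the lower ones Kmt2c, Setd1b, Aff1, Aff4, Ell, Crebbp, Ep300 and Kdm6b.

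**Figure D4:**
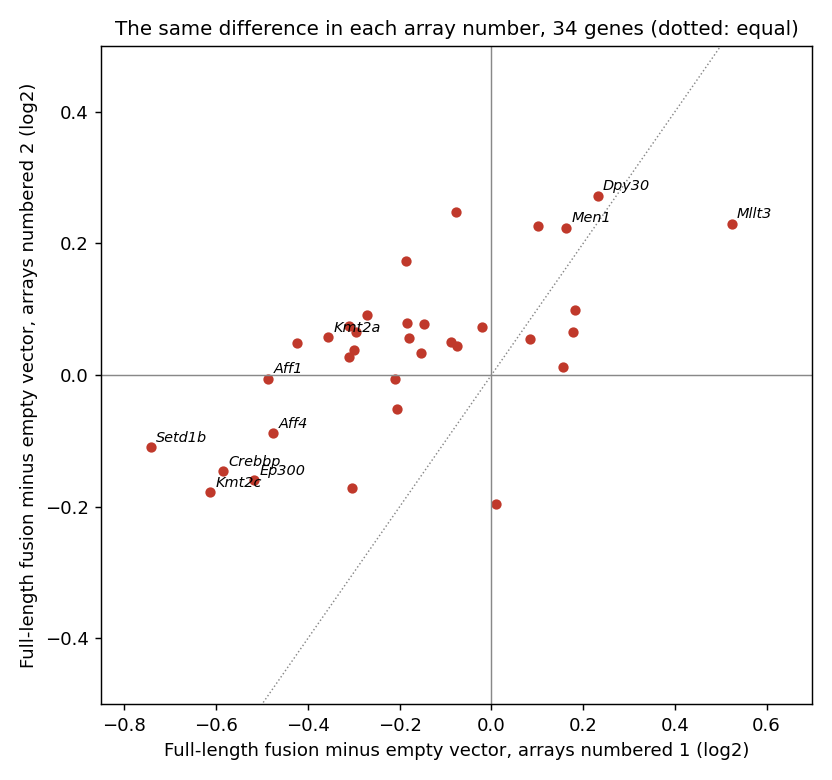
Difference between the full-length fusion and the empty vector among arrays numbered 1 (x axis) against the same difference among arrays numbered 2 (y axis), on the log2 scale, for the 34 genes as points, with equal differences on the dotted line. With arrays numbered 1, 25 genes lie below 0, and with arrays numbered 2, 10 genes do; Dpy30 and Mllt3 are above 0 in both.

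The deletion forms were then compared with the full-length fusion, which asks what the deleted parts of NUP98 contribute. No member passed the test for delFG1, with or without the block (0.00918% and 0.078% of all probe sets passed), and none for delFG2 (0.0275% and 0.468%). At an unadjusted p under 0.05 there were 0 members without the block (2.07% and 2.76%), and with it 1 in each (4.07% and 8.39%), Mllt3, which was lower. The member medians were 0.03 for delFG1 and 0.00 for delFG2, with all probe sets at 0.00 and -0.01. Mllt3 was the lowest member in both, at -0.27 for delFG1 (interval with the block -0.50 to -0.03) and -0.32 for delFG2 (-0.55 to -0.08), with adjusted p of 1 and 0.385 in the fit with the block. Both deletion forms are set against the same full-length arrays, and full-length array 1 is the high one. Without it the Mllt3 difference in the fit without the block was -0.094 for delFG1 and -0.14 for delFG2, and without full-length array 2 it was -0.44 and -0.49. For delFG2 it was -0.50 without delFG2 array 1 and -0.13 without delFG2 array 2. With both deletion forms pooled, Mllt3 differed by -0.29 (-0.33 among arrays numbered 1 and -0.25 among those numbered 2, adjusted p = 0.650 with the block), and no member passed without or with the block (0.0505% and 0.124% of all probe sets). At an unadjusted p under 0.05 there were 0 members without it (2.12%) and Mllt3 with it (5.57%).

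Next to Mllt3, Psip1 (-0.14) and Ezh2 (-0.08) were the lowest for delFG1, and Mllt1 (0.16), Kdm5b (0.15) and Setd1b (0.14) the highest. For delFG2 the lowest were Bmi1 (-0.25) and Eed (-0.12), and the highest Setd1b (0.26), Kmt2d (0.15) and Ell (0.15). Kmt2a differed by 0.05 for delFG1 and 0.04 for delFG2, and Men1 by -0.06 and -0.07. Crebbp differed by 0.08 and 0.05 and Ep300 by 0.06 and 0.10. Dot1l differed by 0.02 and -0.02.

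Each deletion form was also set against the same empty-vector arrays. The direction again differed by number: for delFG1, 27 members were below 0 in arrays numbered 1 (median -0.18) and 9 in those numbered 2 (median 0.07), and for delFG2, 24 (median -0.14) and 11 (median 0.02). Without the block no member passed for delFG1 (0.129% of all probe sets) or delFG2 (0.00459%), and 2 and 0 had an unadjusted p under 0.05 (9.61% and 4.43%). With the block these were 7 and 6 (18.2% and 10.8%). In that fit Dpy30 was higher with delFG1 by 0.27 (interval 0.12 to 0.41, adjusted p = 0.0370, or 0.357 without the block), where 6.12% of all probe sets passed, 1.94% as higher. The Dpy30 difference was 0.22 and 0.31 by number. That call ended with median centring (adjusted p = 0.0578). It held when empty-vector array 2 or delFG2 array 2 was left out and ended without any other single array (0.0502 to 0.377). Without empty-vector array 2 the fit with the block called 8 members and 2272 of 21789 probe sets, the members being Dpy30 as higher and Aff1, Aff4, Crebbp, Ep300, Kmt2c, Kmt2d and Setd1b as lower. For delFG2 the Dpy30 difference was 0.15 (interval 0.01 to 0.30, adjusted p = 0.426 with the block), or 0.18 and 0.13 by number, and no member passed with the block (0.505% of all probe sets), but 7 did without empty-vector array 2, where 1065 of 21789 probe sets passed. Kdm5b was higher by 0.23 with delFG1 and by 0.21 with delFG2 (adjusted p = 0.193 and 0.426 with the block). By number the Kdm5b differences were 0.30 and 0.16 with delFG1 and 0.33 and 0.09 with delFG2. Kmt2c was at -0.32 in both (adjusted p = 0.196 and 0.377 with the block), with -0.60 and -0.53 in arrays numbered 1 but -0.05 and -0.11 in those numbered 2. Bmi1 was at -0.31 with delFG2, with -0.63 among arrays numbered 1 and 0.01 among those numbered 2.

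The deletion forms were last compared with each other. No member passed with or without the block, where 0.537% and 0% of all probe sets did, and 0 had an unadjusted p under 0.05 in either fit (8.07% and 3.13%). The member median was -0.01, and the lowest value was -0.23, that of Bmi1 (adjusted p = 0.752 with the block). Dpy30 was at -0.11, with both delFG2 arrays below both delFG1 arrays.

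When the 3 groups with a form of the fusion were pooled against the empty vector, 0 members passed without the block (0.0964% of all probe sets) and Dpy30 with it, as higher (7.21% in either direction, 2.44% higher). At an unadjusted p under 0.05 there were 5 members without the block (10.6%) and 9 with it (19.6%). The Dpy30 difference was 0.22 (interval 0.11 to 0.34, adjusted p = 0.0288, or 0.298 without the block), with 0.21 among arrays numbered 1 and 0.24 among those numbered 2. It ended with median centring (adjusted p = 0.0510). Of single arrays left out, the call held for delFG2 array 2 (0.0366) and ended for the other 7 (0.0576 to 0.118). Without empty-vector array 2, 9 members and 2432 of 21789 probe sets passed in the fit with the block, the members all lower. Over all 8 arrays, Dpy30 and Kdm5b were the members with both control arrays below all 6 others (7.4% of all probe sets), and Kmt2c was the member with both above (5.9%).

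The array number itself went with some members. In the fit with the block, Eed, the Polycomb subunit that binds methylated lysine 27, was lower in arrays numbered 2 (4.75% of all probe sets were lower). It read 8.68 and 8.49 with the empty vector, 8.76 and 8.55 with the full-length fusion, 8.78 and 8.40 with delFG1, and 8.72 and 8.36 with delFG2. Array 2 was the lower one in 4 of 4 groups, by 0.29 on average (adjusted p = 0.0188), and a dimmer Eed probe set gave -0.01. With 1 array left out the call held without either empty-vector array and ended without any of the other 6 (adjusted p from 0.0095 to 0.141 over the 8 fits). Kmt2a was at -0.31 with an adjusted p of 0.0502, and passed when arrays were centred on their medians (0.0363). In all, 11 of 34 members were lower in number 2 in every group (13.4% of all probe sets) and 1, Ell, was higher in every group (18.1%).

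The precision of these comparisons can be read from the 95% intervals, which assume the same spread in all 4 groups. The members' median absolute gap between the 2 arrays was 0.19 with the empty vector. It was 0.10 with the full-length fusion, 0.07 with delFG1 and 0.14 with delFG2. Intervals against the empty vector may therefore be too narrow for these genes. In all 6 pairwise comparisons and in both fits, the intervals of all 34 members lay within a 2-fold difference in either direction. Between full-length fusion and empty vector, this held for 21147 of 21789 probe sets without the block and 21503 with it. Within a 1.5-fold difference, with the block, lay 30 of 34 members in the comparison of full-length fusion and empty vector, against 20190 of 21789 probe sets. For delFG1 and delFG2 against the empty vector it was 32 members each, against 20242 and 20972 probe sets. In the other pairwise comparisons it was 34. The probe sets there numbered 21460 and 21240 for delFG1 and delFG2 against the full-length fusion, and 21216 between the deletion forms. The largest absolute difference of any member in a pairwise comparison was 0.43.

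Further genes of the same machineries gave few calls between groups. None was called without the block in any comparison between groups. With the block, Kdm7a, a demethylase counted both among MLL partners and demethylases, was lower than in the empty vector, with differences of -0.47 for the full-length fusion (adjusted p = 0.00380), -0.54 for delFG1 (0.00144) and -0.39 for the pooled fusion groups (0.00299). Kdm7a was also higher in arrays numbered 2 than in those numbered 1, by 0.39 (adjusted p = 0.00122). Jmjd1c, a demethylase-family gene, was lower with delFG1 (-0.34, adjusted p = 0.0456) and in the pooled fusion groups (-0.30, 0.0268). Between array numbers, 4 of 19 genes of the elongation, DOT1L and PAF complexes were called lower and 0 higher. Of 26 acetyltransferases and coactivators, 5 were called lower and 0 higher. Of all 21789 probe sets, 1035 were called lower and 1400 higher. The lower genes included Hexim1 (-0.44, adjusted p = 0.00194), which holds P-TEFb inactive, and Trrap (-0.32, 0.00759), a scaffold of acetyltransferase complexes. Beside Kdm7a, the higher ones were 2 of 29 Polycomb genes, Rybp (0.27, adjusted p = 0.0337) and Yaf2 (0.21, 0.0243). Between full-length fusion and empty vector the list medians were -0.11 for 18 MLL, COMPASS and menin partners and -0.10 for 17 demethylases and lysine 36 methyltransferases, lists that share several genes. They were -0.01 for 19 genes of the elongation, DOT1L and PAF complexes, -0.07 for 26 acetyltransferases and coactivators and 0.04 for 29 Polycomb genes. The median of all probe sets was 0.02.

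Target genes of MLL and Polycomb were listed with their response to the fusion in these data already known, so their values are a description and no test against the regulators. Of 14 measured, 7 rose with the full-length fusion without the block and 12 with it (0.124% and 6.61% of all probe sets passed), with a list median of 1.22. Hoxa5 and Hoxa7, genes of the HOXA cluster, were higher by 2.16 and 2.15 (adjusted p = 0.00139 and 0.00276). Against the full-length fusion 2 targets were lower with delFG1 and 5 with the block (0.00918% and 0.078% of all probe sets), and 4 with delFG2 and 10 with the block (0.0275% and 0.468%). The list medians were -0.80 and -1.01, and the medians of the 34 regulators in the same comparisons were 0.03 and 0.00.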

How the data were processed

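Total RNA from 8 samples of mouse cells was measured on whole-transcript arrays, after RNeasy purification and terminal labelling, per the labels' protocols. The deposited file gives linear intensity for 28853 probe sets, and the authors' background correction and normalisation are not stated in the labels. The table holds no detection calls, and the number of arrays limits precision.

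Of these probe sets, 21789 had 1 gene symbol in the platform annotation and were tested as log2(intensity + 1) with no further normalisation; 1621 had several symbols and 5443 none. Of the members, 4 had more than 1 probe set, and the one with the highest mean over all arrays was used. All 34 Entrez numbers were found in RefSeq with the same symbol. limma 3.58.1 in R 4.3.3 (lmFit and eBayes with an intensity trend) fitted 4 group means over 8 arrays, with Benjamini-Hochberg adjustment over all tested probe sets and a two-sided threshold of 0.05. Residual degrees of freedom were 4 (prior 4.62). A second fit added the array number as a block (3 residual, 7.78 prior). Once group means were removed, arrays of the same number correlated in all 6 pairs of groups (r from 0.401 to 0.640), so the numbers from the labels were taken to pair the arrays; what they stand for is not stated. The number comparison comes from this second fit. The computation was checked on simulated data.

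The members and gene lists were chosen with earlier results of these data known. Members called in either fit are given in every array. Kmt2a, Men1, Psip1, Dot1l, Mllt1, Crebbp, Ep300, Ezh2 and Bmi1, and the 3 highest and 3 lowest members of each main comparison, are always named; from other lists, up to 4 called genes. Per-array values of Kmt2c, Setd1b, Mllt3, Kdm5b and other members were added after their values were seen. Alternatives were another pseudocount, median centring, quantile normalisation, no dim probe sets, the mean of a gene's probe sets, no intensity trend, the compared groups alone, and each array left out.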

Additional observations from a re-analysis of the deposited data

How the results depend on the processing

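With the replicate block the count of members called moved from 0 to 1, Dpy30, for the full-length fusion, for delFG1 and for the 3 fusion groups against the empty vector, and changed no other member's call between groups. The counts over all probe sets moved more, from 27 to 1440, from 28 to 1333, from 21 to 1570 and, for delFG2 against the empty vector, from 1 to 110. They moved from 2 to 17 and from 6 to 102 for delFG1 and delFG2 against the full-length fusion, from 0 to 117 between the deletion forms and from 11 to 27 for both forms against the full-length fusion. With the block and 1 array left out, members called ranged from 0 to 10 for the full-length fusion, 0 to 8 for delFG1, 0 to 7 for delFG2 and 0 to 9 for the 3 fusion groups, each against the empty vector. Over all probe sets the same fits called 385 to 2378, 487 to 2272, 2 to 1065 and 827 to 2432, and the highest member count in each came without empty-vector array 2. Leaving out delFG2 array 2 gave 3 for the 3 fusion groups (Crebbp, Dpy30 and Ep300). Between array numbers the count of 1 became 2 (Eed and Kmt2a) with median centring, quantile normalisation or dim probe sets left out, and ranged from 0 to 4 with 1 array left out: 4 without either empty-vector array, 0 without either full-length or either delFG2 array. Without empty-vector array 1 the Kmt2a difference of the full-length fusion turned from -0.15 to 0.18 (0.089 with the block), and without empty-vector array 2 it was -0.48. That of Mllt1 turned from -0.12 to 0.026 with the block. The cause of these changes was not tested. Every main count of members was 0 or 1. Over all settings, 196 counts equalled their main value and 18 differed from it, those above among them. Of settings for single genes, 519 kept direction and side of the threshold, 24 passed it newly, 7 no longer passed and 3 reversed. No detection calls came with the values, so signal over background was not assessed.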
